A study of Mus musculus with 27 samples.

Results

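Rgs5-positive cells that also carried elastin or Cxcl12 transcripts made up 98 of the 6032 cell barcodes recovered from E11.5 mouse hearts, an embryonic stage at which the outflow tract is being divided. They were chosen by transcript counts. A barcode was kept if haemoglobin genes held under 10% of its unique molecular identifiers (UMIs, the count of captured transcripts), if Tnnt2, Actc1, Myl7, Myl4 and Tnnc1 together held under 1%, if Pecam1, Cdh5 and Egfl7 summed to under 3 UMIs and if Upk3b, Upk1b, Wt1, Krt7 and Lrrn4 summed to under 4. It also needed at least 3 UMIs of Rgs5 and at least 3 of Eln plus Cxcl12. These cells are called Rgs5+ cells here, since no position in the heart was recorded for any cell.

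The study compared C57BL/6 mice with deletions of Hand2as (also named Hand2os1), a long non-coding RNA gene beside Hand2. Allele F is a knockout of the whole gene, and allele D is a knockout of its distal 3′ end. The 2 single-cell libraries came from +/+ and F/F hearts at E11.5, offspring of heterozygous parents, with living cells of 6 hearts pooled per genotype after trypsin treatment and sorting. Bulk RNA from whole hearts at E11.5 and from ventricles at E16.5 was measured in F/+ and F/F mice, with 3 libraries per genotype and stage. The labels name no Cre driver or transgene, and the F/+ controls carry 1 copy of the deletion. The 13 bulk libraries of cardiomyocytes from 8-week-old mice (+/+, D/+ and D/D) were not used.

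The outflow tract carries blood from the ventricles to the great arteries, and its wall is built by progenitors of the second heart field, marked by the transcription factor Isl1, and by neural crest cells. Part of this wall becomes the smooth muscle of the aorta and pulmonary trunk, which lays down elastic fibres of elastin on a scaffold of fibrillins and fibulins. Rgs5 dampens signalling through G protein-coupled receptors and is known as a marker of pericytes and arterial smooth muscle. Cxcl12 is a chemokine that guides cells through its receptor Cxcr4.

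The promoters of 3 marker genes are shown because the rule or the label rests on these genes and because HAND factors bind E-boxes. Each runs over the 250 bases before the annotated start, 5′ to 3′ on the strand of the gene, from RefSeq on GRCm38.p6. Capitals mark the E-box letters CANNTG, which read the same on both strands and were the only motif searched. The Rgs5 promoter is chr1:169655251-169655500 on the plus strand, that of Cxcl12 is chr6:117168285-117168534 on the plus strand and that of Isl1 is chr13:116309689-116309938 on the minus strand.
Rgs5: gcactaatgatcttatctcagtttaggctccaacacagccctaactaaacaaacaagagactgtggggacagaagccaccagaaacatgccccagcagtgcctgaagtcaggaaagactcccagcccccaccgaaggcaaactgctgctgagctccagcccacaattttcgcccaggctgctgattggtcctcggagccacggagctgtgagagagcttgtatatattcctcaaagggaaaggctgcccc
Cxcl12: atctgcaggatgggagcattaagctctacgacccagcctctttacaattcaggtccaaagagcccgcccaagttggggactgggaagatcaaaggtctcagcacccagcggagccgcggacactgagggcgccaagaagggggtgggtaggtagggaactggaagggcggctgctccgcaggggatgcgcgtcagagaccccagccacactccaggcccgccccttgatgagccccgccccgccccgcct
Isl1: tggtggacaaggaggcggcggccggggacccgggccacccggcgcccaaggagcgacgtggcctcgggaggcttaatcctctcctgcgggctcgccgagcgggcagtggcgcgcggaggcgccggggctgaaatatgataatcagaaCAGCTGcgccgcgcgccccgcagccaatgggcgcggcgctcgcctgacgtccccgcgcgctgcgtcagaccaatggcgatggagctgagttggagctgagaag
Isl1 held 1 match, which begins 103 bases before the start, and the Rgs5 and Cxcl12 windows held 0, as did that of Dlk1, which is not printed. Among all 32851 promoters of that table, 66.2% held at least 1 match in the same window. These letters are a description of the window and say nothing of binding. Of the 6 markers, 4 had an entry in the table.

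The targeted gene did not follow the labels. Hand2os1 gave 1 UMI over all cells of the library labelled +/+ and 9 over all cells of the library labelled F/F, and 0 and 2 UMIs in the Rgs5+ cells. At 3 UMIs, the limit that a count of 0 allows, the level in the Rgs5+ cells labelled +/+ could be up to 6.08 CPM, the UMIs of a gene scaled to a common library total. The sexes of the pooled hearts also differed between the libraries. Y-linked genes gave 850 UMIs in the library labelled +/+ and 0 in the library labelled F/F, while Xist, which is transcribed from the inactive X chromosome, gave 14546 and 29544. In the Rgs5+ cells the Y-linked genes gave 5 and 0 UMIs. Sex, genotype and library cannot be told apart. Each genotype was a single library, so the single cells allow no test between genotypes, and every interval given for these cells is an exact 95% interval that covers counting error only.

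The Rgs5+ cells were as frequent in both libraries within counting error. They numbered 43 of 2563 barcodes in the library labelled +/+, which is 1.68% (1.22 to 2.25), and 55 of 3469 in the library labelled F/F, which is 1.59% (1.20 to 2.06). The ratio of the shares was 0.945 (0.623 to 1.44), and 1.06 (0.724 to 1.57) with no cardiomyocyte limit. Among the barcodes that passed the 4 exclusions, the shares were 8.07% (5.90 to 10.7) of 533 and 9.53% (7.26 to 12.2) of 577. The Rgs5+ cells held 493280 and 641921 UMIs in all, with a median per cell of 10191 and 10464 against 13426 and 13438 in all other cells. The highest mitochondrial share of an Rgs5+ cell was 15.5% in the library labelled +/+ and 5.36% in the library labelled F/F. The libraries shared 18 barcode sequences, and 0 of them belonged to Rgs5+ cells.

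The edges of the rule were populated unevenly. Rgs5 stood at exactly 3 UMIs in 9 of the chosen cells, and 5 cells that met every other condition had 2. The cardiomyocyte sum of the cell just inside was 0.95% and that of the cell just outside was 1.33%. That condition alone kept out 19 cells, 5 in the library labelled +/+ and 14 in the library labelled F/F. Those 19 cells held Dlk1 at 592 and 787 CPM in the libraries labelled +/+ and F/F, Isl1 at 184 and 99.5 CPM and Rgs5 at 276 and 362 CPM. Cells with the same markers but more contractile transcripts therefore lay outside the set.

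The 6 markers, whose levels chose or named the cells and are given as a description, stood far above all other cells in both libraries. Rgs5 reached 937 CPM (853 to 1026) labelled +/+ and 863 CPM (793 to 938) labelled F/F, which were 90.1 and 78.1 times the levels in all other cells. It was found in every one of the 98 cells, as the rule required, with a median of 8 UMIs and a highest value of 41. Cxcl12 was at 906 and 787 CPM against 47.0 and 42.7 CPM. Elastin was at 491 and 227 CPM against 21.5 and 14.8 CPM.
Among the markers that the rule did not use, Isl1 was at 142 CPM (111 to 179) and 91.9 CPM (70.0 to 119), against 7.64 and 6.44 CPM elsewhere. Mfap4, a microfibril-associated glycoprotein that binds elastic fibres, was at 251 and 231 CPM against 25.3 and 20.7 CPM. Dlk1, an imprinted transmembrane protein related to Notch ligands, was at 620 and 333 CPM against 79.7 and 51.6 CPM. Each of these 3 was at least 6.46 times the level of all other cells in either library. A UMI of Isl1 was found in 27 of 43 and 32 of 55 Rgs5+ cells, at median depths of 10191 and 10464 UMIs. In erythroid cells, which should lack Isl1, it was found in 5 of 975 and 5 of 1271, at median depths of 11128 and 11754 UMIs.

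**Figure D1:**
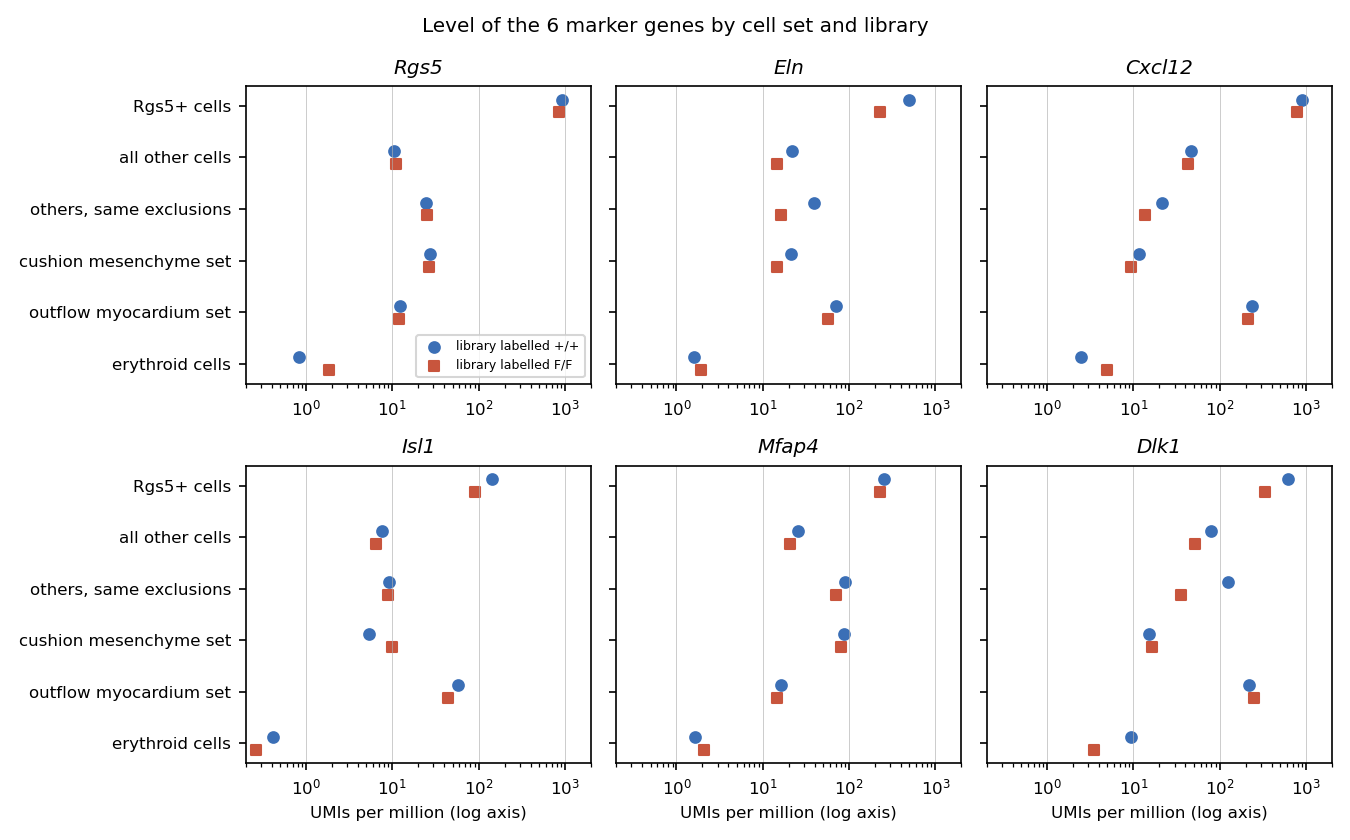
CPM of the 6 markers (log axis) in the Rgs5+ cells and in 5 other sets of cells, with circles for the library labelled +/+ and squares for the library labelled F/F. Among the sets shown, every marker is highest in the Rgs5+ cells in both libraries, and Cxcl12, Isl1 and Dlk1 come next in the outflow myocardium set, with Cxcl12 at 236 and 212 CPM there. The 19 cells kept out by the cardiomyocyte limit alone are not drawn, and they held Isl1 and, labelled F/F, Dlk1 above the Rgs5+ cells.

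The outflow myocardium set in that plot held 435 cells at or above the 1% cardiomyocyte limit with at least 3 UMIs of Rspo3, Sema3c and Bmp4 together, without the 19 cells described above. The cushion mesenchyme set held 585 other cells with the same 4 exclusions, at least 10 UMIs of Sox9, Postn, Vcan and Hapln1 together and none of Fcer1g, Tyrobp, Pf4 and C1qb. Both sets were chosen after values were seen. Isl1 in the outflow myocardium set was at 58.2 and 44.8 CPM, while in the cushion mesenchyme set it was at 5.38 and 9.83 CPM. Mfap4 had the other order, at 16.2 and 14.8 CPM in the outflow myocardium set and at 87.4 and 81.1 CPM in the cushion mesenchyme set.

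Against all other cells, 131 of the 750 genes with at least 100 UMIs in the Rgs5+ cells of each library (17.5%) were at least 2-fold higher in both libraries, and 13 (1.73%) were at least 2-fold lower. Haemoglobin dominates many of the other cells: with haemoglobin and mitochondrial genes left out of the totals, the first count was 54 of 735, and against the other cells that passed the same 4 exclusions it was 23 of 750. These comparisons describe cells chosen by their transcripts and carry no test.
The 23 genes held the rule genes Rgs5, Cxcl12, Eln and Tnnc1. Hand1, a basic helix-loop-helix factor related to Hand2, was at 239 and 305 CPM against 20.7 and 12.8 CPM in the cells with the same exclusions. Bmp4, a secreted growth factor of the outflow tract, was at 365 and 385 CPM against 70.4 and 52.8 CPM. Col1a2, a chain of type I collagen, was at 543 and 400 CPM against 101 and 86.3 CPM. Acta2, smooth muscle actin, was at 1095 and 1489 CPM against 392 and 372 CPM, and Cdkn1c, an imprinted inhibitor of the cell cycle, was at 1752 and 2589 CPM against 636 and 682 CPM. Others of the 20 genes highest over all other cells, the rule genes left out, were shared with the cells of the same exclusions. Cthrc1, a secreted collagen-repeat protein, was at 391 and 355 CPM in the Rgs5+ cells against 424 and 418 CPM in the others. Tgfbi, a matrix protein, was at 521 and 338 CPM against 380 and 308 CPM.

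Smooth muscle genes were detected in part. Of the 18 smooth muscle genes listed, 7 reached 100 UMIs in each library, and 4 of those were at least 2-fold above all other cells in both, beside 17.5% of all genes. Against the cells with the same exclusions, Acta2 alone of the list was past 2-fold in both. Tagln, an actin-binding protein of smooth muscle, was at 1103 and 1503 CPM against 416 and 392 CPM in all other cells. Myh11, the smooth muscle myosin heavy chain of mature contractile cells, gave 0 UMIs in both libraries, which allows up to 6.08 and 4.67 CPM. Myocd, the coactivator that drives contractile smooth muscle genes, gave 5 UMIs in each library. Tagln and Acta2 also turned up in erythroid cells, where UMIs of Acta2 were found in 28.9% and 50.6% of cells against 83.7% and 85.5% of the Rgs5+ cells.
Some pericyte genes other than Rgs5 were sparse. The mural and pericyte list, which holds Rgs5, summed to 1312 and 1234 CPM, against 289 and 237 CPM in the cells with the same exclusions. Rgs5 alone was at 937 and 863 CPM against 24.7 and 25.4 CPM there, so the rest of the list was higher too. Kcnj8 and Abcc9, subunits of a potassium channel of pericytes, gave 0 and 1 UMIs and 1 and 3 UMIs, and Vtn gave 0 in both libraries. Pdgfrb, the receptor through which mural cells are recruited, was at 32.4 and 43.6 CPM against 8.89 and 6.97 CPM. So Rgs5 in these cells was not accompanied by the channel genes that mark pericytes elsewhere.

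Genes of the second heart field and of neural crest were represented unevenly. The second heart field and outflow list summed to 1520 and 1190 CPM. That was above all other cells, at 488 and 470 CPM, and above those with the same exclusions, at 776 and 692 CPM. The neural crest list summed to 616 and 779 CPM, above the 297 and 225 CPM of all other cells. It was below the 1014 and 812 CPM of the cells with the same exclusions. Among second heart field and outflow genes, Fgf10 and Eya1 gave 0 UMIs in both libraries, and Tbx1 gave 1 and 4. Mef2c was at 203 and 123 CPM against 81.9 and 76.3 CPM in all other cells, and Wnt5a, a secreted Wnt ligand, was at 189 and 108 CPM against 27.2 and 21.3 CPM. Of the 16 neural crest genes in the table, Sox10 gave 0 and 1 UMIs and Tfap2a 0 and 1. Dlx5, a homeobox factor of pharyngeal arch mesenchyme, gave 6 and 5 UMIs, at 12.2 and 7.79 CPM against 0.159 and 0.256 CPM. Crabp1, a retinoic acid-binding protein, was at 93.3 and 99.7 CPM against 23.9 and 18.2 CPM, and its relative Crabp2 was at 60.8 and 51.4 CPM against 3.02 and 3.37 CPM.
Hox genes, which mark position along the body axis, summed to 66.9 and 88.8 CPM against 8.01 CPM in all other cells of both libraries. Hoxb2 gave 12 and 15 UMIs and Hoxb4 gave 5 and 14, while 9 of the 18 Hox genes in the table gave 0.

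Markers of other cell types ranged from absent to above the other cells. The cushion mesenchyme list summed to 1364 and 1309 CPM, above the 884 and 724 CPM of all other cells and below the 2932 and 2586 CPM of the other cells with the same exclusions. The pharyngeal and lung epithelium list summed to 79.1 and 87.2 CPM, above both, at 55.6 and 67.5 CPM and at 53.5 and 41.8 CPM, with Foxa2, Cdh1 and Nkx2-1 at 0. The macrophage list summed to 6.08 and 3.12 CPM against 120 and 139 CPM in all other cells, with Fcer1g, Mrc1, Lyz2 and Csf1r at 0. The endothelial list, also partly capped by the rule, summed to 176 and 131 CPM. It was at 195 and 185 CPM in all other cells and at 156 and 147 CPM in those with the same exclusions. Emcn, Tie1 and Npr3 of this list were at 0, while Kdr was found in 16 of 43 and 14 of 55 Rgs5+ cells. In the cushion mesenchyme set Kdr was found in 11 of 311 and 9 of 274 cells. The cardiomyocyte list, partly capped by the rule, summed to 2123 and 1943 CPM against 11890 and 13757 CPM in all other cells and 851 and 1217 CPM in those with the same exclusions. Its range over single cells was 89.0 to 13166 CPM and 226 to 9180 CPM. The list of Schwann and neuronal genes summed to 34.5 and 115 CPM, mostly from Tubb3, against 51.1 and 53.9 CPM. Their part in the results below was not tested.

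The Rgs5+ cells spread along a gradient of Sox9, a transcription factor of cartilage and of cushion and outflow mesenchyme. The cells were divided by their Sox9 UMIs after the values had been seen, and the division carries no test. Sox9 gave 0 UMIs in 19 of 43 cells labelled +/+ and in 14 of 55 cells labelled F/F, and 3 or more UMIs in 16 and 31. Median depth was 9323 UMIs in the 33 cells without Sox9 and 11833 in the 47 cells with 3 or more.
Over both libraries, cells without Sox9 held Tnni1, the slow troponin I of fetal muscle, at 1715 CPM (against 473 CPM with 3 or more UMIs), Bmp4 at 629 CPM (195), Dlk1 at 895 CPM (271), Col1a2 at 775 CPM (329), Hand1 at 425 CPM (160) and Isl1 at 159 CPM (73.6). Cells with 3 or more UMIs held Postn, a matricellular protein of cushions, at 244 CPM (against 25.9 CPM without Sox9), Fbln5, a fibulin that organises elastin, at 134 CPM (19.5), Tagln at 1759 CPM (477), the intermediate filament Vim at 2199 CPM (882) and Meox1, a homeobox factor, at 213 CPM (61.6). Rgs5 itself differed less, at 1096 and 760 CPM.
The same order held in each library on its own for Tnni1, Postn and Dlk1. Tnni1 was at 1874 and 503 CPM labelled +/+ and at 1474 and 456 CPM labelled F/F. Postn was at 21.5 and 226 CPM and at 32.7 and 253 CPM. Dlk1 was at 1181 and 258 CPM and at 458 and 279 CPM, so its contrast was smaller labelled F/F. Across single cells, Spearman correlations of Sox9 with Tnni1 were -0.58 over 43 cells and -0.51 over 55 cells, and with Vim 0.67 and 0.55. They were weaker with Isl1, at -0.26 and -0.18, and with Hand1, at -0.38 and -0.04. Cells of a library share its depth range and pooled source, so these are descriptions.

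**Figure D2:**
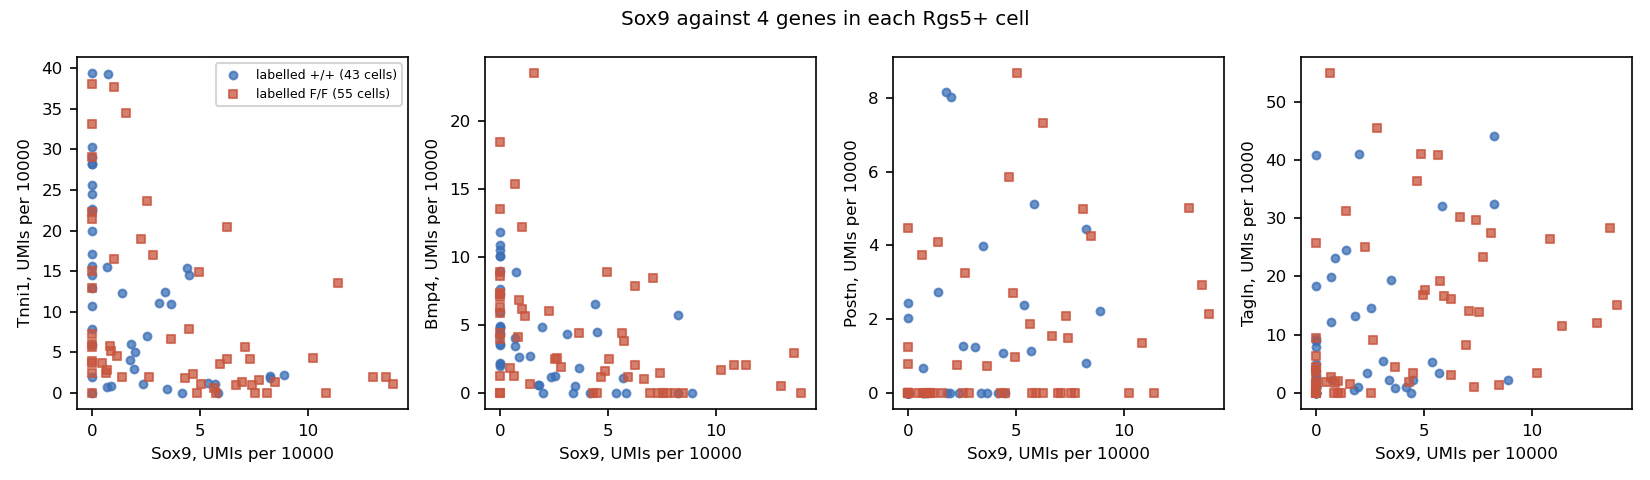
Share of UMIs, on the scale printed on the axes, of Sox9 (x axis) against Tnni1, Bmp4, Postn and Tagln (y axes) in each Rgs5+ cell, with circles for 43 cells labelled +/+ and squares for 55 labelled F/F. The highest Tnni1 values lie in cells with little or no Sox9. Both libraries hold cells without Sox9, but the highest Sox9 shares lie in cells labelled F/F only.

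Between the libraries, most genes of the Rgs5+ cells were close. Of 888 genes with at least 200 UMIs summed over the Rgs5+ cells, 18 (2.03%) were at least 1.5-fold higher in the library labelled F/F and 21 (2.36%) at least 1.5-fold lower, together 39 (4.39%). In all other cells, 10 of the same 888 genes (1.13%) were past 1.5-fold. The counting intervals of all 18 and all 21 excluded a ratio of 1. Scaling by the median ratio of genes, a shift of 0.04 on the log2 scale, gave 13 higher and 23 lower. The sign was the same in all other cells for 17 of the 21 lower and 14 of the 18 higher genes, beside 599 of all 888 genes (67.5%). Past 1.5-fold in all other cells were 7 of the 21 and 0 of the 18. In the other cells with the same exclusions, 11 of the 21 and 0 of the 18 were past 1.5-fold. There the sign was the same for 18 of the 21 and 14 of the 18. These differences were not tested.

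Sox9 and Mest stood out among the higher genes. Sox9 gave 225 CPM labelled +/+ and 430 CPM labelled F/F. This log2 ratio was 0.93 (0.61 to 1.27), against -0.22 in all other cells. With every cell thinned to 5000 UMIs and chosen again, which left fewer cells, it was 2.03. Mest, an imprinted gene of mesoderm, was at 162 and 326 CPM, with a log2 ratio of 1.01 (0.63 to 1.40), against 0.15 in all other cells. Myl9, a smooth muscle myosin light chain, was at 393 and 639 CPM. Its log2 ratio was 0.70 (0.45 to 0.95), and 1 of the 7 smooth muscle genes with enough UMIs was past 1.5-fold higher, beside 2.03% of all genes. The median log2 ratio of those 7 was 0.44, against 0.06 over all 888 genes.
Some cell division genes were higher in the library labelled F/F. Ube2c, which acts with the anaphase-promoting complex, was at 282 and 502 CPM, and Cdk1, the kinase that starts mitosis, at 148 and 248 CPM. Within the cells with 3 or more Sox9 UMIs the order turned, with Ube2c at 530 and 296 CPM and Cdk1 at 291 and 188 CPM. Among the 18 genes of G2 and mitosis, 4 had enough UMIs, 2 were past 1.5-fold higher, beside 2.03% of all genes, and 0 lower. The list summed to 1486 and 2246 CPM, but the median cell held 267 and 292 CPM. After thinning to 5000 UMIs the log2 ratios were 2.69 for Ube2c and 2.96 for Cdk1, against 0.83 and 0.74 without.
Of the 5 TGF-beta and BMP genes with enough UMIs, 1 was past 1.5-fold, beside 4.39% of all genes. Id2, an inhibitor of basic helix-loop-helix factors induced by BMP, was at 752 and 1134 CPM, past 1.5-fold, while Id1 was at 349 and 503 CPM and Id3 at 1239 and 1637 CPM. Bmp4 was at 365 and 385 CPM, with a log2 ratio of 0.08 (-0.21 to 0.36).

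Elastin and both fibrillins were among the lower genes. Of the 20 elastic fibre genes listed, 6 had enough UMIs. Of these, 3 were past 1.5-fold lower, beside 2.36% of all genes, and 0 higher. Their median log2 ratio was -0.56, against 0.06 over all 888 genes and -0.22 for the same list in all other cells. Without elastin, which the rule used, 5 had enough UMIs, 2 were past 1.5-fold lower, beside the same 2.36%, and the median was -0.53. Elastin had a log2 ratio of -1.11 (-1.42 to -0.81) and was also lower in all other cells at -0.54. In the other cells with the same exclusions it was at 39.3 and 16.1 CPM, also lower labelled F/F. Fbn2, the fibrillin of embryonic microfibrils, was at 410 and 245 CPM, and Fbn1 was at 249 and 165 CPM. Mfap2 and Mfap4 were level, with log2 ratios of 0.06 (-0.16 to 0.29) and -0.12 (-0.48 to 0.23). Elastin takes part in the rule, so a cell needed more Cxcl12 to enter where elastin was low.
Elastin in cells without Sox9 was at 639 and 237 CPM, and in cells with 3 or more Sox9 UMIs at 327 and 220 CPM. Dlk1 was at 620 and 333 CPM in all Rgs5+ cells, a log2 ratio of -0.90 that was -0.46 with no cardiomyocyte limit. It was at 258 and 279 CPM in those with 3 or more Sox9 UMIs, where its order turned. In the other cells with the same exclusions Dlk1 was at 125 and 35.4 CPM, also lower labelled F/F. Vcan, a large proteoglycan of the outflow and cushion matrix, was at 353 and 187 CPM, with a log2 ratio of -0.92 (-1.26 to -0.57), against -0.21 in all other cells. Mecom, a zinc-finger factor, was at 422 and 178 CPM, with a log2 ratio of -1.25 (-1.59 to -0.91) in the Rgs5+ cells and -0.90 in all other cells.
Phlda2, an imprinted gene that restrains growth, was at 272 and 76.3 CPM, but 1 cell labelled +/+ held 67 of its 134 UMIs there. It had too few UMIs in all to enter the count of 888 genes.

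**Figure D3:**
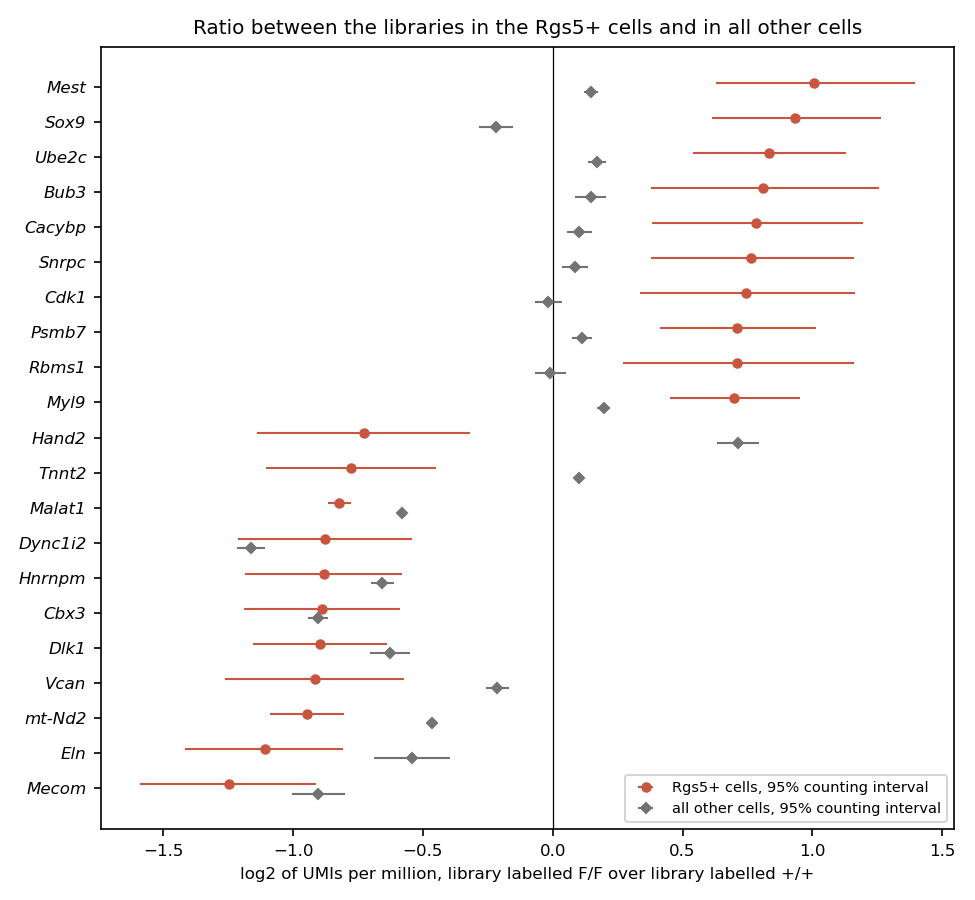
log2 ratio of CPM, library labelled F/F over library labelled +/+, for the 10 highest and 10 lowest genes and Hand2, with circles for the Rgs5+ cells and diamonds for all other cells and bars for 95% counting intervals. Hand2 lies at -0.73 in the Rgs5+ cells and at 0.71 in all other cells, while Cbx3 lies close to -0.9 in both.

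Hand2, the transcription factor beside the deleted gene, ran in opposite directions inside and outside the set. In the Rgs5+ cells it gave 117 UMIs labelled +/+ and 92 labelled F/F, which are 237 CPM (196 to 284) and 143 CPM (116 to 176), with the log2 ratio at -0.73 (-1.14 to -0.32). All other cells held it at 47.3 and 77.7 CPM, with the log2 ratio at 0.71, and in the other cells with the same exclusions at 84.3 and 128 CPM. The ratio was also below 0 in cells without Sox9, at -0.63 (-1.42 to 0.11), and in those with 3 or more Sox9 UMIs, at -0.74 (-1.35 to -0.12). A UMI of Hand2 was found in 86.0% and 74.5% of Rgs5+ cells. In erythroid cells it was found in 2.46% and 7.08%, and the part of free RNA in either ratio was not tested.
Other genes of that neighbourhood were mostly sparse. Hmgb2, a chromatin protein abundant in dividing cells, was at 825 and 1224 CPM, and Sap30, a subunit of a histone deacetylase complex, at 58.8 and 42.1 CPM.

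The bulk libraries measure all cell types of the heart at once, so fewer cells of a type and less RNA per cell cannot be told apart. Their controls were F/+, not +/+. By limma with Benjamini-Hochberg adjustment, 1 of 11491 genes (0.0087%) was called between F/F and F/+ at E11.5, and it was Mir6236, which is no marker of these cells. Of the 6 markers, 0 were called. Without adjustment, 257 genes (2.24%) were higher and 245 (2.13%) lower at a p under 0.05, and 2 of the 6 markers, Rgs5 and Mfap4, were among the lower.
Mfap4 measured 65.7, 63.6 and 44.3 FPKM (fragments scaled to transcript length and library size) in F/+ hearts and 31.6, 28.8 and 27.4 FPKM in F/F hearts, with means of 57.8 ± 11.8 (SD, n = 3) and 29.2 ± 2.14. The groups did not overlap, which held for 1 of the 6 markers. Over all genes, 4.31% were lower in every F/F library, 4.93% higher in every one, and 9.23% either. The difference was -0.94 ± 0.19 (SE) on the log2(FPKM + 1) scale, with a limma adjusted p of 0.519. In single Rgs5+ cells its ratio was level, as given above.
Rgs5 measured 6.93, 1.44 and 7.85 FPKM in F/+ hearts and 0.96, 2.51 and 0.42 FPKM in F/F hearts. The groups overlapped through the F/+ library of replicate 2, and the difference on the log2 scale, -1.38 ± 0.53 (SE), had an adjusted p of 0.999 in limma. Marker lists of other cells and positions differed in the same libraries. All 13 Hox genes tested had lower means in F/F hearts, 9 without overlap, with a median log2 difference of -1.83 against 0.02 over all genes, and 0 of them were past the adjusted threshold. Of 4 pharyngeal and lung epithelium genes 3 had a log2 difference below 0, with a median of -0.72. Log2 differences were above 0 for 9 of 12 cardiomyocyte genes (median 0.29) and 9 of 10 endothelial genes (median 0.22, 5 without overlap). The same held for 6 of 6 megakaryocyte genes (median 0.47). The part of these lists in the marker values was not tested.

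**Figure D4:**
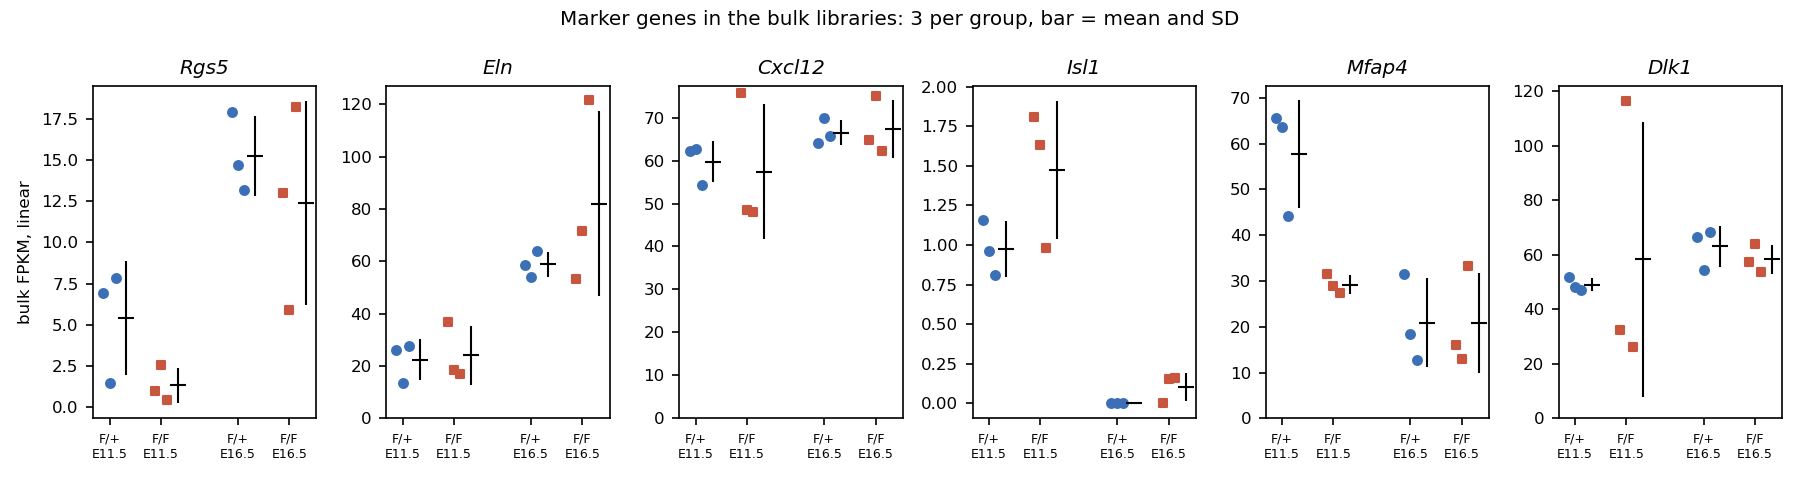
Bulk FPKM (linear) of the 6 markers in each F/+ (circles) and F/F (squares) library at E11.5 and E16.5, with the mean and SD of 3 libraries beside each group. Mfap4 at E11.5 is the one marker and stage at which no F/F library reaches the F/+ range.

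Eln, Cxcl12, Isl1 and Dlk1 overlapped between the groups at E11.5, with log2 differences of 0.07 ± 0.34, -0.09 ± 0.20, 0.31 ± 0.37 and -0.08 ± 0.44 (SE). Elastin measured 26.3, 13.5 and 27.5 FPKM in F/+ and 36.9, 18.4 and 16.9 FPKM in F/F hearts, so the lower elastin of the Rgs5+ cells labelled F/F had no counterpart beyond the spread here. Dlk1 measured 117 FPKM in F/F replicate 2 and 26.04 to 51.82 FPKM in the other 5 libraries. Hand2 measured 58.6 to 86.7 FPKM in F/+ and 69.2 to 79.1 FPKM in F/F hearts.
The 20 genes highest in the Rgs5+ cells over all other cells leave out the rule genes Rgs5, Cxcl12 and Eln. Of these 20, 2 had an unadjusted limma p under 0.05 at E11.5, Mfap4 and Cd24a. Both were lower, beside 2.13% of all genes. Col3a1 and Mfap4 were lower without overlap, beside 4.31% of all genes. The median log2 difference of these 20 was -0.12 against 0.02 over all genes.
At E16.5, 1 of 10699 genes (0.00935%) was called, again Mir6236, and 0 of the 5 markers tested. Without adjustment 174 genes (1.63%) were higher and 107 (1%) lower, and 0 of the 5 markers were among them. The groups did not overlap for 0 of the 5 markers, against 3.9% of all genes higher, 2.88% lower and 6.78% either. Rgs5 measured 17.9, 14.7 and 13.2 FPKM in F/+ ventricles and 13.0, 5.91 and 18.3 FPKM in F/F ventricles, and elastin 54.0 to 63.8 and 53.1 to 122 FPKM. Isl1 was listed at 0 in all F/+ ventricles and did not enter the fit. Hand2 measured 46.0 to 52.9 FPKM in F/+ and 40.3 to 44.4 FPKM in F/F ventricles without overlap, and did not pass the limma adjusted threshold. Y-linked genes gave 0, 4.82 and 0.03 FPKM in F/+ ventricles and 5.05, 5.67 and 5.58 FPKM in F/F ventricles. Sex and genotype were therefore not balanced at E16.5. At E11.5 the Y-linked genes gave 0, 0.03 and 3.24 FPKM in F/+ hearts and 1.78, 0 and 5.16 FPKM in F/F hearts.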

How the data were processed

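Single-cell values are UMI counts per gene and barcode that the authors deposited as 1 table of both libraries. The build mm10 and Cell Ranger are named in the submitters' processing notes, and barcode endings WT and KO were taken as the +/+ and F/F libraries. Bulk values were deposited by the authors without a named unit and are taken as FPKM from their range. The notes name mm9, CASAVA and TopHat2 2.0.11. The depth of the bulk libraries is unknown. Libraries held at least 3746 UMIs per barcode.

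UMIs were summed per library and divided by the total (CPM). Exact conditional binomial intervals were given for ratios and exact Poisson or Clopper-Pearson intervals for levels and shares, at 95%. PCR and pooling error are not in them. scanpy 1.11.5 scrublet marked 9 and 3 barcodes, under 0.5% of each library, so doublets were treated only as an alternative that removed the 53 and 96 barcodes with the highest scores. Bulk FPKM were tested with limma 3.58.1 (R 4.3.3) with a trend on log2(FPKM + 1), for genes with a mean of at least 1, adjusted p under 0.05, within each stage. The labels do not say that bulk libraries are separate litters, so p-values measure the spread between these libraries.

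Genes were named by a rule: the 6 markers, 20 genes highest over other cells, 10 genes at each end of the ratio between libraries, 5 at each end of its difference from other cells, the genes beside Hand2, and 2 to 6 per listed pathway. The 20 genes leave out Rgs5, Cxcl12 and Eln, which chose the cells. The members and lists were chosen with earlier results of these data known. Scripts were tested on simulated data.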

Additional observations from a re-analysis of the deposited data

Results flagged for a closer look

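Mir6236, a short microRNA gene entry, was listed at 0 FPKM in every F/+ heart at E11.5 and at a mean of 19899 FPKM in F/F hearts. At E16.5 the order was the opposite, with a mean of 35.0 FPKM in F/+ ventricles and 0 in every F/F ventricle. It was singled out because the groups separate in opposite directions at the 2 stages. The difference between the stages was not tested.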

How the results depend on the processing

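The share of Rgs5+ cells, as a ratio of F/F over +/+, was 0.786 to 0.921 with other Rgs5 or Eln plus Cxcl12 limits, a gene minimum, doublet removal or thinning. Chosen after seeing the data, it was 0.916 to 0.957 with each exclusion limit doubled and 1.06 with no cardiomyocyte limit. The count of genes past 1.5-fold was 8 of 217 (7 higher, 1 lower) after thinning each cell to 5000 UMIs, 414 of 3193 with at least 50 UMIs, and 14 of 239 in cells without Sox9 (chosen after seeing the data); these tested other numbers of genes than the 888. The count of genes over other cells was 54 without haemoglobin and mitochondrial genes and 23 against cells with the same exclusions. Among ratios past 1.5-fold, signs turned for Cbx3 after thinning (0.014) and, in cells with 3 or more Sox9 UMIs, for Dlk1 (0.11), Ube2c (-0.84) and Cdk1 (-0.63), and with no cardiomyocyte limit for Tnnt2 (0.27) and Tnni1 (0.039). Of the smaller ratios, Rgs5 (0.15), Cxcl12 (0.12) and Mfap4 (0.16) turned in cells with 3 or more Sox9 UMIs, and Rgs5 at the limit of 2 UMIs (0.015). Thinning moved 12 of 27 named ratios beyond their counting interval. Hand2 ranged from -0.82 to -0.51.

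In bulk, replicate numbers share no source in the labels. Same-numbered deviations correlated at -0.036, -0.017 and 0.082 at E11.5 and -0.081, 0.042 and -0.435 at E16.5. With a replicate block, 2 genes were called at E11.5. At E16.5, a pseudocount of 0.1 gave 2 and a Y-linked covariate 3. Leaving out 1 library gave 1 to 2 at E11.5 and 0 to 2 at E16.5, 0 without F/+ replicate 3 or F/F replicate 1, where Mir6236 had a limma adjusted p of 0.0645 and 0.0752. Small differences changed sign. With a Y-linked covariate at E11.5 Eln was -0.084, Dlk1 0.26 and Hand2 -0.014, and at E16.5 Cxcl12 was -0.055, Mfap4 0.055 and Dlk1 0.092. Upper-quartile scaling gave Hand2 -0.048 at E11.5 and Cxcl12 -0.010 at E16.5. Leaving out 1 library gave ranges at E11.5 of -0.27 to 0.27 for Eln, -0.30 to 0.024 for Cxcl12, -0.73 to 0.33 for Dlk1 and -0.13 to 0.15 for Hand2. At E16.5 the ranges were -0.71 to 0.025 for Rgs5, -0.065 to 0.069 for Cxcl12 and -0.41 to 0.31 for Mfap4. The cause of these changes was not tested. Low UMI counts limit single cells, and 3 libraries a group limit bulk.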
